A study of Mus musculus with 6 samples.

Results

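Insulin and mTOR signalling was followed in mouse liver through 7 named genes: Insr, Irs1, Pik3r1, Akt1, Akt2, Mtor and Gsk3b. The probe sets of these members were found by name and not by any measured value. The members themselves were chosen with earlier results of these data known. Every probe set whose only gene symbol in the platform's annotation was a member was taken, and probe sets of a gene were kept apart. This gave 7 probe sets of 6 genes, with 2 for Mtor and 1 for each of the others, out of 12488 probe sets on the array and 8251 genes named on it. No probe set was listed for Gsk3b, and that gene was not analysed here.

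The arrays held liver RNA of 3 genotypes taken at 2 circadian times, with 1 array for each of the 6 groups. All animals were males between 8 and 10 weeks of age. Circadian time 2 (CT02) lies 2 h into the subjective day and circadian time 14 (CT14) 14 h after its start, in the early subjective night. The wild-type arrays carried the only stated strain background, C57BL/6. The Clock mutants are mice with a mutant Clock gene, of an allele not given in the sources used here. Of the arrays titled Cry-deficient, the one at CT02 was described as lacking both Cry1 and Cry2 and the one at CT14 only as Cry deficient. The labels do not say whether RNA of several animals was pooled. The comparisons show how the transcripts of this pathway stood at the start of the subjective night against the start of the subjective day, and in each clock-gene mutant against wild type.

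Insulin binds the insulin receptor, a tyrosine kinase encoded by Insr, which phosphorylates adaptor proteins such as the product of Irs1. The adaptors recruit phosphoinositide 3-kinase, whose main regulatory subunit comes from Pik3r1, and its lipid product brings the kinases Akt1 and Akt2 to the membrane, where they are activated. Akt inhibits glycogen synthase kinase 3 (Gsk3a and Gsk3b), which lets glycogen synthase act, holds forkhead transcription factors out of the nucleus, and relieves the brake on the mTOR kinase, which drives protein and lipid synthesis. In liver this pathway stores glucose after a meal and turns off glucose production. Clock forms, with Bmal1, the activator of the circadian clock, and Cry1 and Cry2 repress it.

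The values are array intensities after scaling of each array to the others, given as scaled units. A floor of 606 scaled units, the median of all values, was set below which no level was read, and 5598 probe sets with a mean at or above it were kept. The mean deposited intensity ranged from 1637 on the Clock mutant CT02 array to 2486, and between 21.5% and 24.0% of the values of an array lay at or below 0. The Clock mutant CT02 array was the dimmest. The array carries 3 control transcripts whose ratio of 3' to 5' signal is read as a measure of RNA length, and they did not order the arrays alike. The Clock mutant CT02 array had the highest ratio for Actb (2.68, against 0.84 to 1.70 elsewhere), the lowest for Gapdh (0.56, against 0.59 to 2.37) and the third highest for Pcx (17.65, against 3.96 to 25.26). The brightest Cry1 probe set, 94420_f_at, read 1833 and 2723 in wild type and 3845 and 4718 on the arrays labelled Cry-deficient, so it did not show the loss of Cry1. The Cry2 probe set 97724_at read 1215 and 2256 in wild type and 1185 and 1344 on the arrays labelled Cry-deficient, close to wild type at CT02, where the label names both genes. The labels do not say where these probe sets lie relative to the deleted parts. These arrays are called Cry-labelled below, and every direction drawn from them rests on the label. Clock itself read 2430 and 1552 for wild type and 1640 and 2069 for the Clock mutant, which cannot show a changed allele. The liver identity of the samples was read from hepatocyte markers, of which 8 of 8 on the array had a mean above the floor, with a summed level of 79541 on the Clock mutant CT14 array, the lowest, to 103708 on the Clock mutant CT02 array, the highest.

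Across the members, the Akt kinases and the mTOR kinase went in opposite directions between the times. Akt1, Akt2 and Pik3r1 were higher at CT14 than at CT02 in wild type, on the Clock mutant arrays and on the Cry-labelled arrays, and both Mtor probe sets were lower at CT14 in all 3 genotypes. With no scaling of the arrays the last statement did not hold: the log2 difference of Mtor was then 0.13 and 0.20 in the Clock mutant on its 2 probe sets and 0.11 on 95302_at of the Cry-labelled arrays, where the median of all genes was 0.45 and 0.20. The largest member differences were a low Akt2 and Akt1 signal on the Clock mutant CT02 array and a low Mtor signal on the wild-type CT14 array. With 1 array per group none of these differences had a replicate check, and no member passed a test adjusted over all probe sets. In whole liver, fewer cells of a type and less RNA per cell cannot be told apart.

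**Figure D1:**
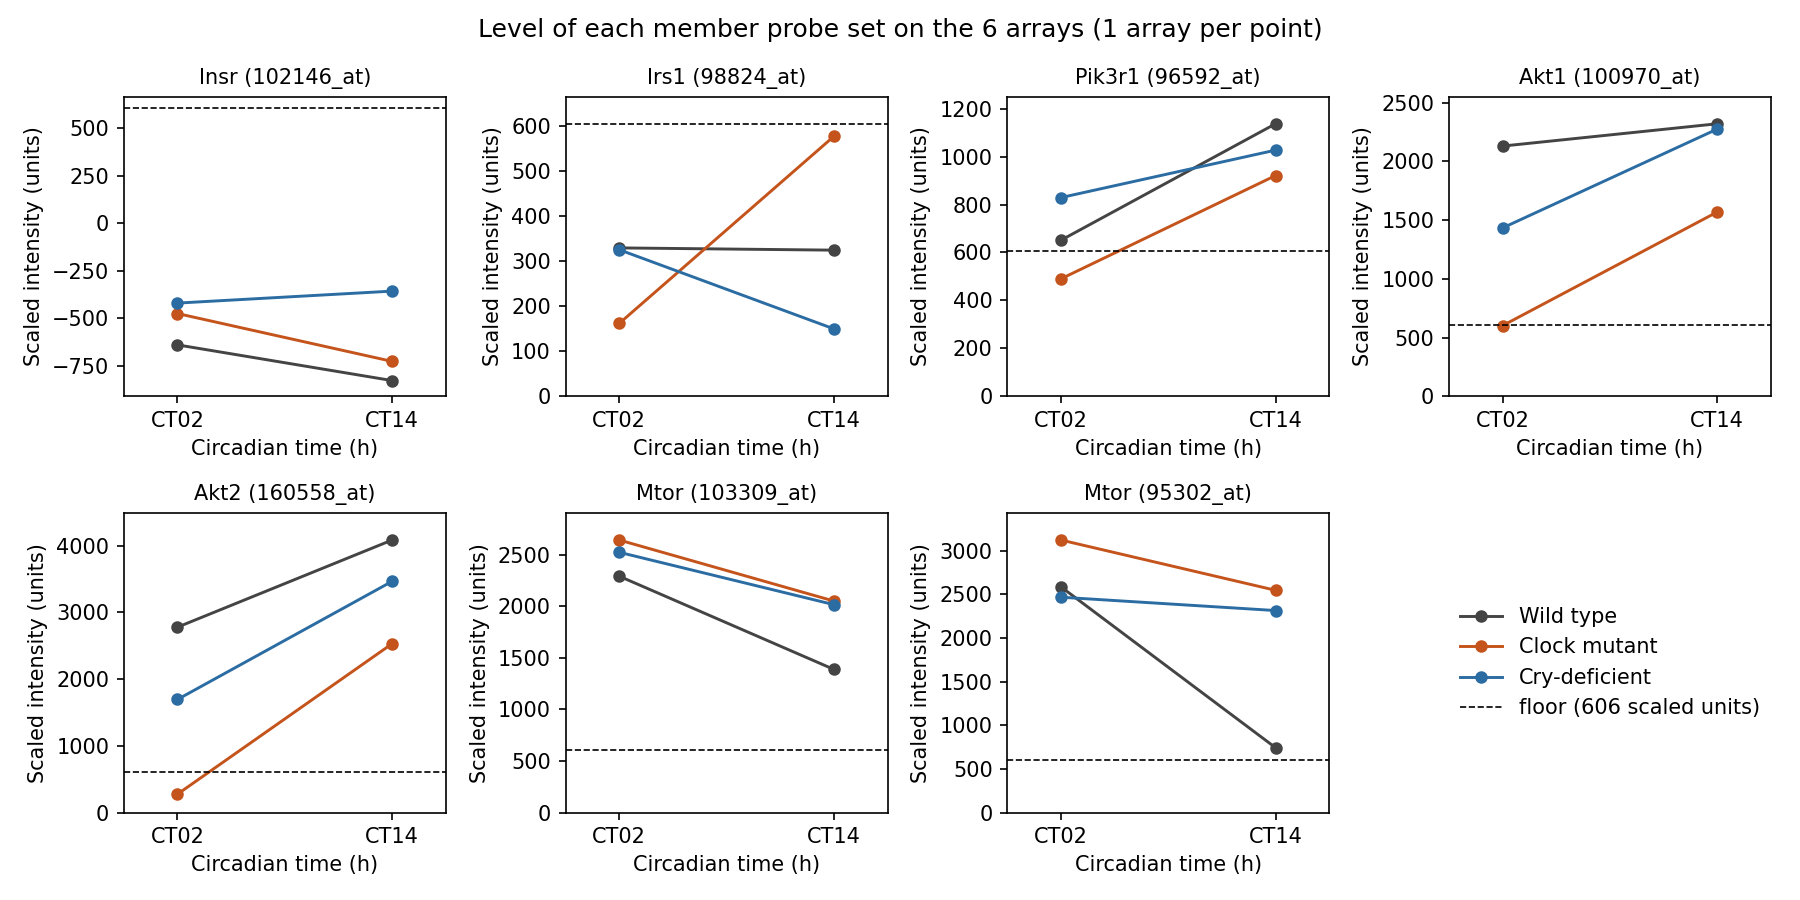
Scaled intensity of each of the 7 member probe sets at CT02 and CT14, 1 point per array, with lines joining the arrays of a genotype and a dashed line at the floor of 606 scaled units (each panel has its own axis). Insr and Irs1 lie under the floor throughout, Akt1 and Akt2 are lowest on the Clock mutant CT02 array, and Mtor is lowest on the wild-type CT14 array.

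The receptor and its adaptor were not readable on these arrays. Insr (102146_at) had values of -641 and -829 scaled units on the wild-type arrays of CT02 and CT14, -476 and -728 on the Clock mutant arrays, and -421 and -358 on the Cry-labelled arrays. All 6 values were below 0, and no level or direction was read. Irs1 (98824_at) read 330 and 325 in wild type, 162 and 578 on the Clock mutant arrays, and 326 and 150 on the Cry-labelled arrays. Its highest value, in the Clock mutant at CT14, was still under the floor, so that 0 of 6 arrays gave a level for either gene. The other receptor-level genes on the array shared this limit in part. Igf1r, the receptor for insulin-like growth factor 1, was negative on all arrays, as was Irs2, the second main insulin receptor substrate of liver, and Irs3 had a mean under the floor.

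Irs1 was the only one of the 6 members with a promoter window in the RefSeq table to hold the perfect E-box CACGTG, the palindromic letters bound by Clock with Bmal1. A window runs from 250 bases before to 50 after an annotated start, and 11 windows of these members were listed on assembly GRCm38.p6, none of them for Insr. The E-box of Irs1 began at position -115 from the start. It is shown because CACGTG occurs in 7.15% of all 32851 windows, here within 30 bases at chr1:82291537-82291566 on the minus strand, with the E-box in capitals.
Irs1: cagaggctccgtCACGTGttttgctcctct
No difference of Irs1 could be read on these arrays to set beside that sequence.

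Pik3r1 (96592_at), whose product p85 alpha both stabilises and restrains the catalytic subunit of phosphoinositide 3-kinase, read 651 and 1137 scaled units on the wild-type arrays of CT02 and CT14. On the Clock mutant arrays it read 490 and 921, and on the Cry-labelled arrays 829 and 1027. The 3 CT14 arrays were the 3 highest, and the Clock mutant CT02 array lay under the floor. CT14 was 1.75-fold above CT02 in wild type, at least 1.52-fold on the Clock mutant arrays and 1.24-fold on the Cry-labelled arrays. The wild-type log2 difference of 0.80 lay just outside the range from -0.72 to 0.76 that held the middle 90% of all kept probe sets in that comparison. Against wild type at the same time Pik3r1 differed by no more than 1.27-fold in either mutant where both arrays were above the floor, within the middle 90% of probe sets, and the Clock mutant at CT02 was at least 1.07-fold lower. The gene has 1 probe set on the array, close to the floor, so these sizes rest on dim signal.

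Akt1 (100970_at), the widely expressed Akt isoform, read 2131 and 2321 scaled units on the wild-type arrays of CT02 and CT14. It read 602 and 1570 on the Clock mutant arrays and 1434 and 2276 on the Cry-labelled arrays. Akt2 (160558_at), the isoform most tied to insulin's control of glucose in liver, read 2778 and 4084 in wild type, 276 and 2531 on the Clock mutant arrays, and 1695 and 3465 on the Cry-labelled arrays. The 6 arrays fell in the same order for both genes: wild type CT14, Cry-labelled CT14, wild type CT02, Clock mutant CT14, Cry-labelled CT02 and, lowest, Clock mutant CT02. On the Clock mutant CT02 array both were under the floor.

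In wild type the time difference of the Akt genes was small, 1.09-fold for Akt1 and 1.47-fold for Akt2, and both log2 differences (0.12 and 0.56) lay within the middle 90% of probe sets. On the Cry-labelled arrays CT14 was 1.59-fold above CT02 for Akt1 and 2.04-fold for Akt2, the latter a log2 difference of 1.03 against an upper bound of 0.90 for the middle 90%. In the Clock mutant CT14 was at least 2.59-fold above CT02 for Akt1 and at least 4.17-fold for Akt2. At CT02 the Clock mutant was at least 3.52-fold below wild type for Akt1 and at least 4.58-fold below for Akt2. At CT14, where neither array was under the floor, the Clock mutant was 1.48-fold below wild type for Akt1 and 1.61-fold below for Akt2. The Cry-labelled array was 1.49-fold below wild type for Akt1 and 1.64-fold below for Akt2 at CT02, and 1.02-fold and 1.18-fold below at CT14. Against wild type both Akt genes were thus lower in both mutants at both times, by less than 2-fold outside the Clock mutant CT02 array; the difference of Akt1 at CT14 on the Cry-labelled array, -0.03 on the log2 scale, was 0.02 with no scaling.

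The order of the arrays by Akt signal can be set beside the control probes for RNA length. The 3 arrays with the lowest Akt1 and Akt2 values, Clock mutant CT02, Cry-labelled CT02 and Clock mutant CT14, had the 3 highest Actb 3' to 5' ratios (2.68, 1.70 and 1.15). The other controls did not follow that order. The same 3 arrays had Gapdh ratios of 0.56, 2.37 and 0.59, the first and last of which were the lowest of the 6 arrays. Their Pcx ratios were 17.65, 25.26 and 6.57, and the wild-type CT02 array, with higher Akt1 and Akt2 than any of them, had 19.7. The Pcx ratio did split the arrays by time. At CT02 it was 19.7 in wild type, 17.65 in the Clock mutant and 25.26 on the Cry-labelled array. At CT14 it was 3.96, 6.57 and 7.14 in the same order. The part of RNA quality in the Akt differences, or in the time differences of the other members, was not tested.

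**Figure D2:**
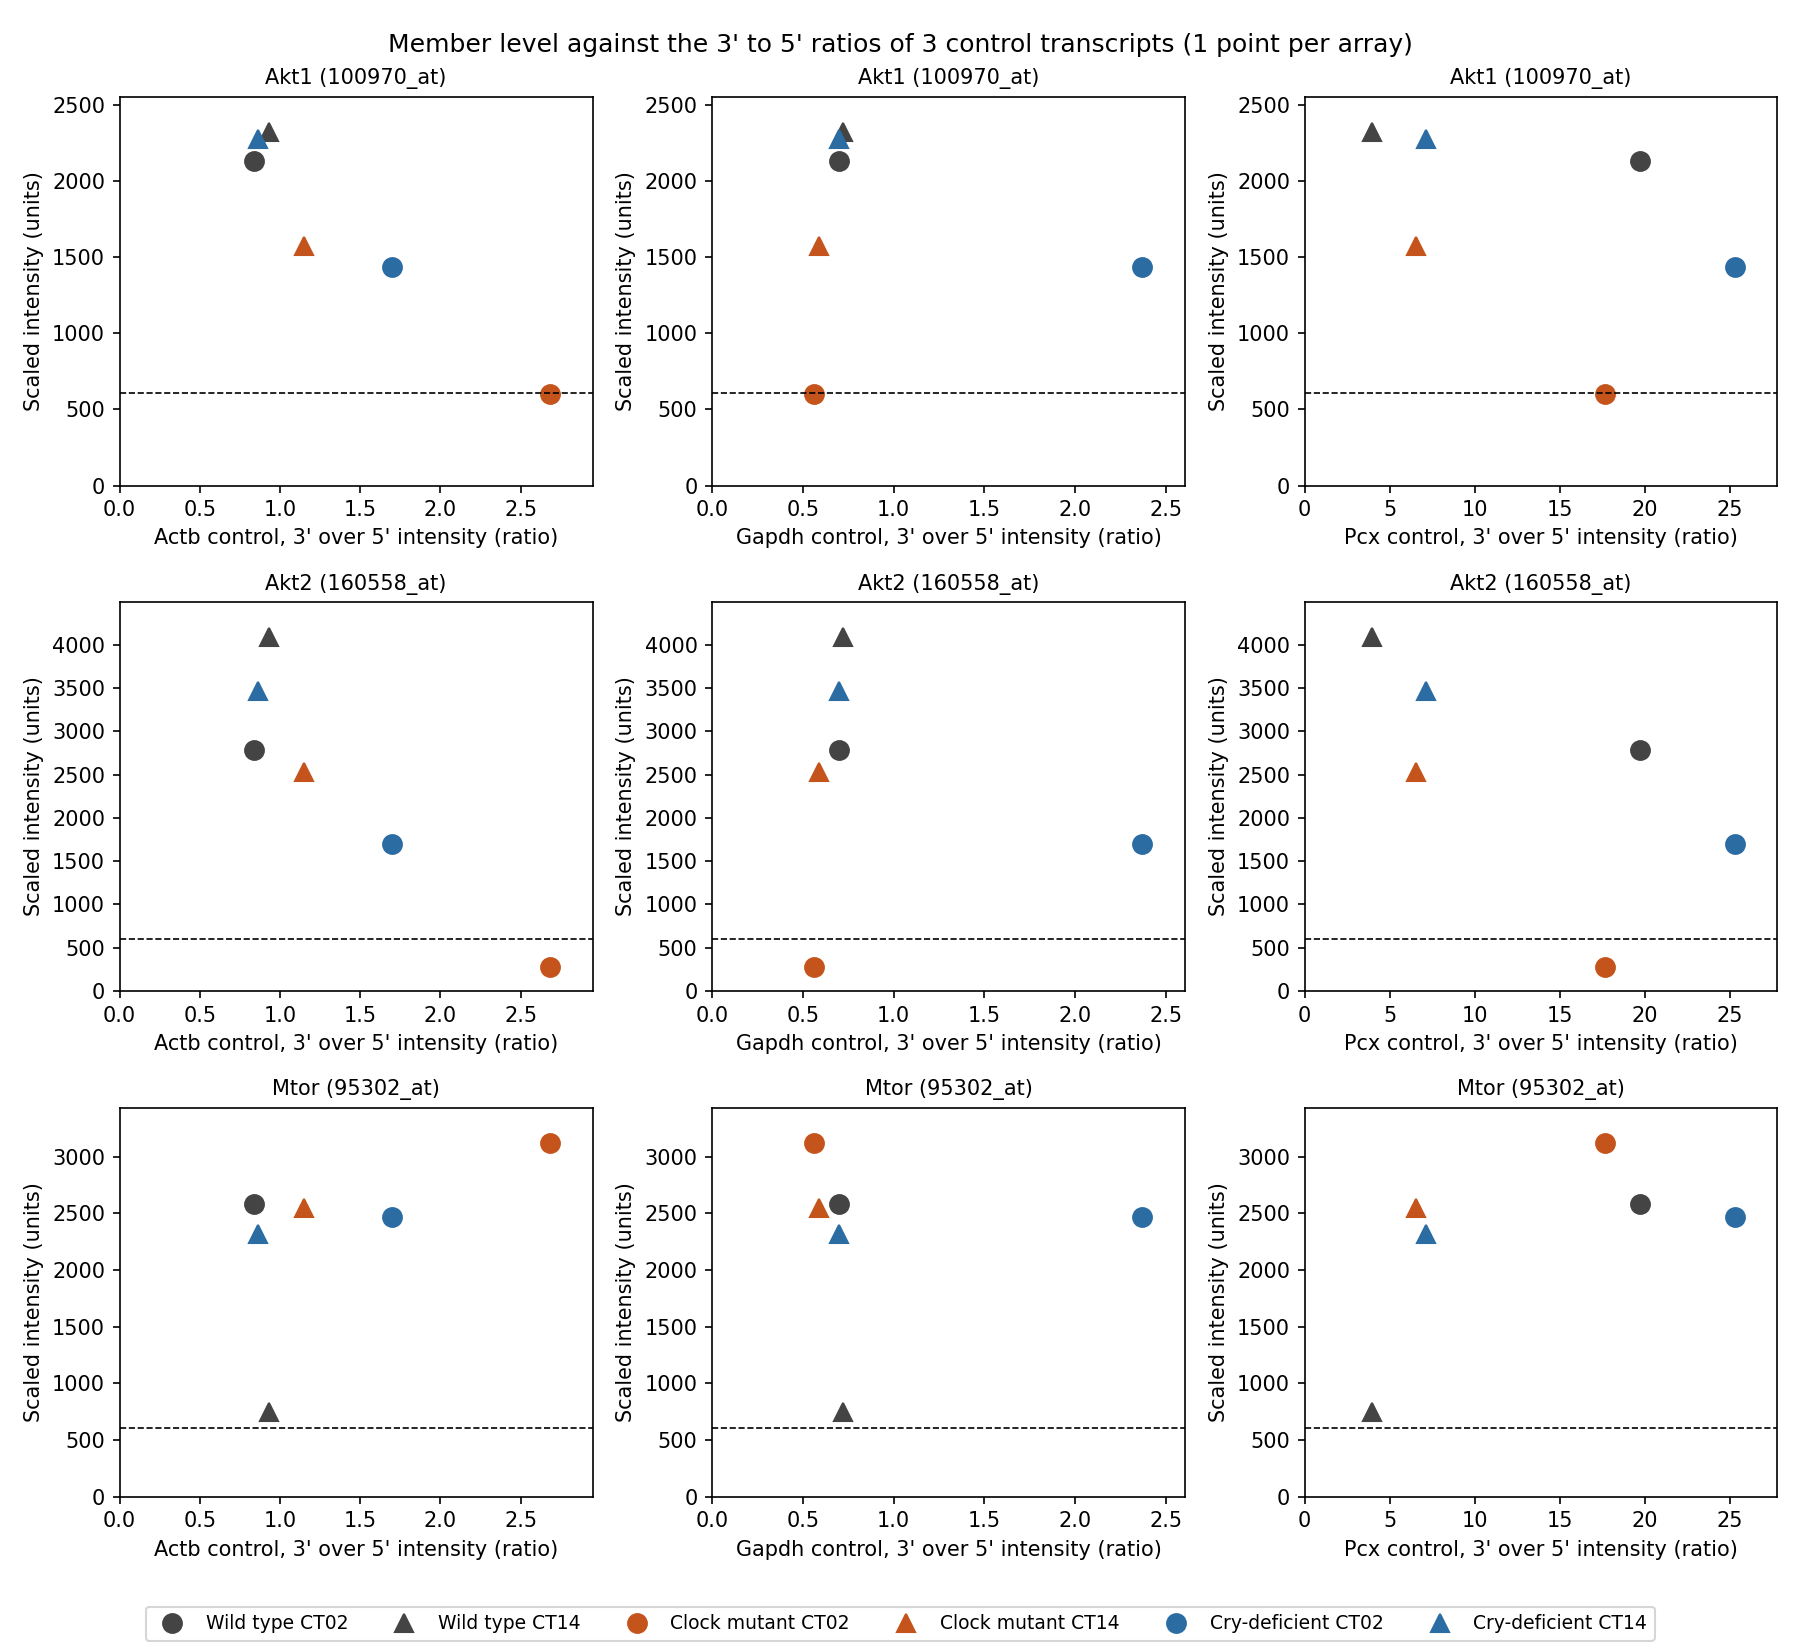
Scaled intensity of Akt1, Akt2 and Mtor (95302_at) in rows on each of the 6 arrays against the 3' to 5' ratio of the Actb, Gapdh and Pcx control probes in columns, with circles for CT02, triangles for CT14, colours for genotype and a dashed line at the floor of 606 scaled units. The Clock mutant CT02 array, lowest for Akt1 and Akt2 and, after scaling, highest for Mtor (3122), has the highest Actb ratio and the lowest Gapdh ratio. The low Mtor value of 743 comes from the array with the lowest Pcx ratio, 3.96.

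The Akt genes put the arrays in 1 order, and their promoter windows are shown for that reason. Each window was searched on both strands, and matches are in capitals. The forkhead motif was searched as TGTTTAC. The GC box was searched as GGGCGG, so that its reverse form also counts. The E-box was searched as above. The windows lie at chr12:112674835-112675134 and chr12:112674227-112674526, both on the minus strand, for the upstream and the downstream start of Akt1, and at chr7:27591302-27591601 on the plus strand for the most upstream of 4 starts of Akt2.
Akt1 upstream start: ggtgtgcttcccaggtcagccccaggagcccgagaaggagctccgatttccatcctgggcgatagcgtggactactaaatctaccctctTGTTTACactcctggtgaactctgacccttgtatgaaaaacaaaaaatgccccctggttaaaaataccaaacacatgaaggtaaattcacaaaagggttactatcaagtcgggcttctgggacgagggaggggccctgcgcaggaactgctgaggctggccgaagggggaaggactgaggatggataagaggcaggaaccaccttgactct
Akt1 downstream start: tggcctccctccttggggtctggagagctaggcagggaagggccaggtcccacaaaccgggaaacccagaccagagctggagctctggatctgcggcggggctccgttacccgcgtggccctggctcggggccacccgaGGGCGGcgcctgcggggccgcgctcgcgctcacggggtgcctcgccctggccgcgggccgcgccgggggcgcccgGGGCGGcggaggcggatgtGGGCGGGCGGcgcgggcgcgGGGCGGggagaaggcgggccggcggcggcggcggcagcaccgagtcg
Akt2 most upstream start: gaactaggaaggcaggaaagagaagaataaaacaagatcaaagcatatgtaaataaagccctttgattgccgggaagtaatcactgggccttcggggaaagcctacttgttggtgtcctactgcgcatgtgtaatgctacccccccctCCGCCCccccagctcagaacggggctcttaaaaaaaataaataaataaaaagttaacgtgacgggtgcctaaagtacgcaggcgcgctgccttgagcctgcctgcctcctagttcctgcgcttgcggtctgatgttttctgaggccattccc
The upstream Akt1 window, of 52.3% GC, held 1 forkhead match, which occurs in 3.65% of all windows, and no GC box. The downstream Akt1 window, of 79.7% GC, held 5 GC boxes, of which a pair overlap, and the Akt2 window held 1. A GC box occurs in 35.7% of all windows, whose mean GC content was 53.8%. None of the 3 held the E-box. These matches describe the letters of the windows and say nothing of binding in these livers.

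Below Akt, the target kinase Gsk3b had no probe set, and its paralog Gsk3a, which shares its role in restraining glycogen synthase, is given beside the members. Gsk3a (92884_at) read 15253 and 14297 scaled units in wild type, 10905 and 11461 on the Clock mutant arrays, and 14873 and 14945 on the Cry-labelled arrays. Both Clock mutant arrays were below the other 4, by log2 differences of -0.48 and -0.32 against wild type at CT02 and CT14, and the time differences were between -0.09 and 0.07 in the 3 genotypes. These log2 differences all lay within the middle 90% of probe sets.

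Mtor, the kinase at the core of both mTOR complexes, was measured by 2 probe sets that were lowest on the same array. On 95302_at it read 2586 and 743 scaled units on the wild-type arrays of CT02 and CT14, 3122 and 2546 on the Clock mutant arrays, and 2467 and 2314 on the Cry-labelled arrays. On 103309_at it read 2293 and 1389 in wild type, 2644 and 2052 on the Clock mutant arrays, and 2525 and 2017 on the Cry-labelled arrays. The wild-type CT14 array was the lowest on both, and the Clock mutant CT02 array was the highest on both after scaling. As deposited, this dimmest array read 2317 on 95302_at and 1962 on 103309_at. Those values were below every other array but wild-type CT14. On 95302_at the other 5 arrays lay between 2314 and 3122, so that 1 array carried nearly the whole range, whereas on 103309_at, after scaling, the 3 CT14 arrays lay below the 3 CT02 arrays.

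In wild type CT14 was 3.48-fold below CT02 on 95302_at, which ranked 8 from the lowest of 5094 probe sets above the floor on both arrays, and 1.65-fold below on 103309_at. Both probe sets agree on the direction in wild type, and the log2 differences of -1.80 and -0.72 show that they do not agree on its size. In the Clock mutant the time differences were -0.29 and -0.37 on 95302_at and 103309_at, and on the Cry-labelled arrays -0.09 and -0.32. The wild-type difference on 95302_at exceeded the other genotypes' by 1.51 and 1.71 on the log2 scale, and on 103309_at by 0.36 and 0.40. These differences between genotypes were not tested, because each genotype has 1 array per time. At CT14 Mtor was 3.43-fold higher in the Clock mutant than in wild type and 3.11-fold higher on the Cry-labelled array on 95302_at, and 1.48-fold and 1.45-fold higher on 103309_at. Both mutants share that single wild-type array, so these are not separate observations of a low wild-type value. At CT02, in contrast, no Mtor difference from wild type exceeded 1.21-fold on either probe set.

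Mtor has 1 window in the RefSeq table, shown because its 2 probe sets were lowest on the same array, at chr4:148448332-148448631 on the plus strand, with GC boxes in capitals.
Mtor: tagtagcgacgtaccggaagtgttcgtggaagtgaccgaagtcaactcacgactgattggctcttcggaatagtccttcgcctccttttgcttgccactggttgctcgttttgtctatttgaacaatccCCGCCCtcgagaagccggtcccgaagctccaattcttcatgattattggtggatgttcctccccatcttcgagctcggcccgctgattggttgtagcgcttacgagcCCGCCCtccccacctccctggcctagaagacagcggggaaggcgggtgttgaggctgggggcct
It held 2 GC boxes in reverse form, no forkhead motif and no E-box, at 56.7% GC.

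The probe sets whose level followed Mtor (95302_at) most closely over the 6 arrays were sought among 1389 probe sets of other genes that were above the floor on every array and spanned at least 2-fold. Timm10, a chaperone for mitochondrial import, had a Pearson correlation of 0.99, Erbb3, a receptor of the epidermal growth factor receptor family, 0.98, and Naa35, a subunit of an N-terminal acetyltransferase, 0.94. Erbb3 read 8851 and 3259 in wild type, 8860 and 7495 on the Clock mutant arrays, and 9117 and 7597 on the Cry-labelled arrays. Timm10 read 884 and Naa35 669 on the wild-type CT14 array, against 1675 to 2067 and 1321 to 1544 on the other 5. All of them, like Mtor, are lowest on that single array, and the 6 points share their scaling. No other member probe set met the conditions for this search. The wild-type CT14 array was also the lowest for markers of 2 other cell types on their summed level: exocrine pancreas markers summed to 4909 there and to 8904 to 12382 elsewhere (2 of 2 above the floor), and endothelial markers to 6803 against 9145 to 14229 (4 of 5 above the floor). Of the pancreas list, Pla2g1b read 755 there and 2049 to 2831 on the other arrays. Of the endothelial list, Eng made up most of each sum and, like Kdr, was lowest there. Tek read 640 there and on the Clock mutant CT02 array, and Cdh5 was lowest on the Cry-labelled CT14 array. Whether these belong with the low Mtor value was not tested.

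**Figure D3:**
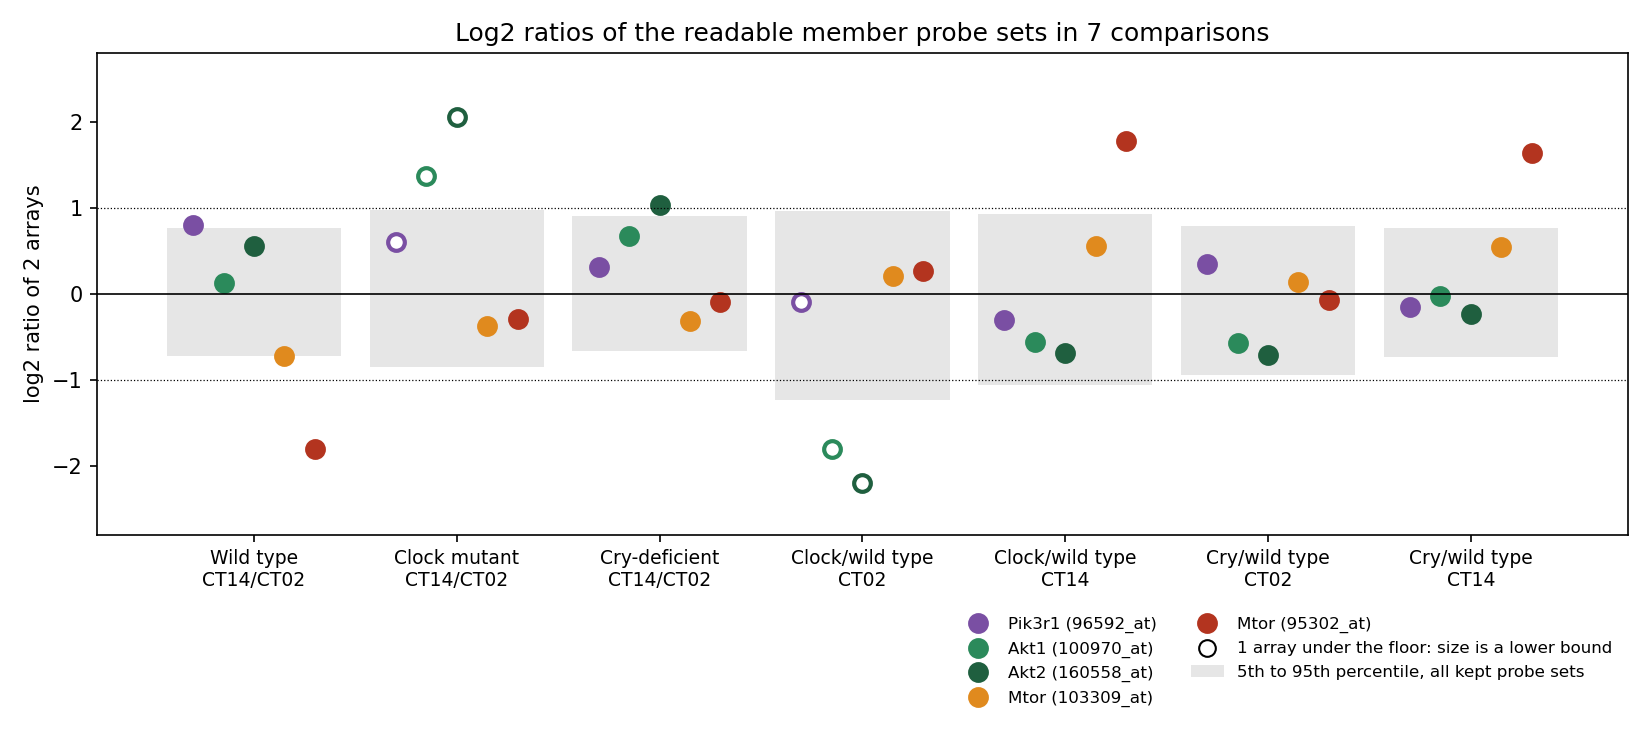
Log2 ratio of 2 arrays for the 5 readable member probe sets in each of 7 comparisons, with open symbols where 1 array lay under the floor, grey bands from the 5th to the 95th percentile of all 5598 kept probe sets, and dotted lines at 2-fold. Akt1 and Akt2 lie outside the bands in the comparisons that use the Clock mutant CT02 array, and Mtor (95302_at) in those that use the wild-type CT14 array.

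Counted over comparisons, few members were 2-fold apart. Of the 5 readable member probe sets, 1 was at least 2-fold apart between the times in wild type (Mtor 95302_at, lower at CT14), against 4.86% of all kept probe sets. In the Clock mutant 2 were, Akt1 and Akt2, both higher at CT14, against 8.25%, and on the Cry-labelled arrays 1 was, Akt2, higher at CT14, against 6.23%. For the Clock mutant over wild type the count was 2 at CT02, Akt1 and Akt2, both lower, against 12.4%, and 1 at CT14, Mtor 95302_at, higher, against 10.1%. For the Cry-labelled arrays over wild type it was 0 at CT02 against 7.23%, and 1 at CT14, Mtor 95302_at, higher, against 4.81%. With 5 probe sets a count of 1 cannot be told from these backgrounds, and the 2 Akt counts share the Clock mutant CT02 array. These 5 are the members that passed the filter, 4 genes of 7.

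A fit of genotype and time over all 6 arrays gave the mean differences and the only error these data allow. Its error comes from how the time difference varied between genotypes, with 2 residual degrees of freedom before limma's moderation. For time the fit therefore speaks only of what the genotypes share, and for a mutant only of what the 2 times share. Values under the floor entered the fit as 606 scaled units. On the Clock mutant CT02 array this held for Akt2 (276), Pik3r1 (490) and Akt1 (602). Their time and Clock mutant differences, and all their intervals, therefore depend on the floor. Akt2 was higher at CT14 by a mean log2 difference of 1.22 (SE 0.31, 95% interval 0.44 to 1.99), Akt1 by 0.72 (SE 0.27, 0.05 to 1.39) and Pik3r1 by 0.57 (SE 0.19, 0.11 to 1.04). Mtor differed by -0.47 on 103309_at (SE 0.18, -0.92 to -0.02) and by -0.73 on 95302_at (SE 0.36, -1.62 to 0.16). Without adjustment 4 of the 5 had p under 0.05 for time, against 5.09% of all kept probe sets. After Benjamini-Hochberg adjustment over all 5598 the limma p was 0.872 for each, and 0 of 5 passed, against 0% of all.

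For the Clock mutant against wild type, averaged over the times, Akt2 differed by -1.44 (SE 0.38, 95% interval -2.39 to -0.50) and Akt1 by -1.19 (SE 0.33, -2.01 to -0.36). Mtor differed by 1.02 on 95302_at (SE 0.44, -0.07 to 2.12) and 0.38 on 103309_at (SE 0.22, -0.17 to 0.94), and Pik3r1 by -0.20 (SE 0.23, -0.77 to 0.36). Without adjustment 2 of 5, both Akt genes, had p under 0.05, against 16.0% of all kept probe sets. The adjusted limma p was 0.183 for Akt2 and 0.198 for Akt1, and 0 of 5 passed, against 0.0179% of all, a single probe set of Dio1. Without the Clock mutant CT02 array the Clock difference was -0.81 for Akt2 and -0.70 for Akt1 (adjusted limma p 0.431 and 0.457), and the mean time difference was 0.79 and 0.39 (both 0.893). Without the wild-type CT14 array the differences of Mtor on 95302_at were -0.19 for time and 0.22 for the Clock mutant.

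For the Cry-labelled arrays against wild type no member had an unadjusted p under 0.05, against 6.54% of all kept probe sets, and 0% of all passed after adjustment. The mean log2 differences were -0.48 for Akt2 (95% interval -1.42 to 0.47), -0.30 for Akt1 (-1.13 to 0.52), 0.10 for Pik3r1 (-0.47 to 0.67), and 0.79 (-0.31 to 1.88) and 0.34 (-0.22 to 0.89) for Mtor on 95302_at and 103309_at. The lowest adjusted limma p among them was 0.822. The intervals reach past 2-fold for Akt1, Akt2 and Mtor 95302_at, so a mean difference of that size was not excluded for them.

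**Figure D4:**
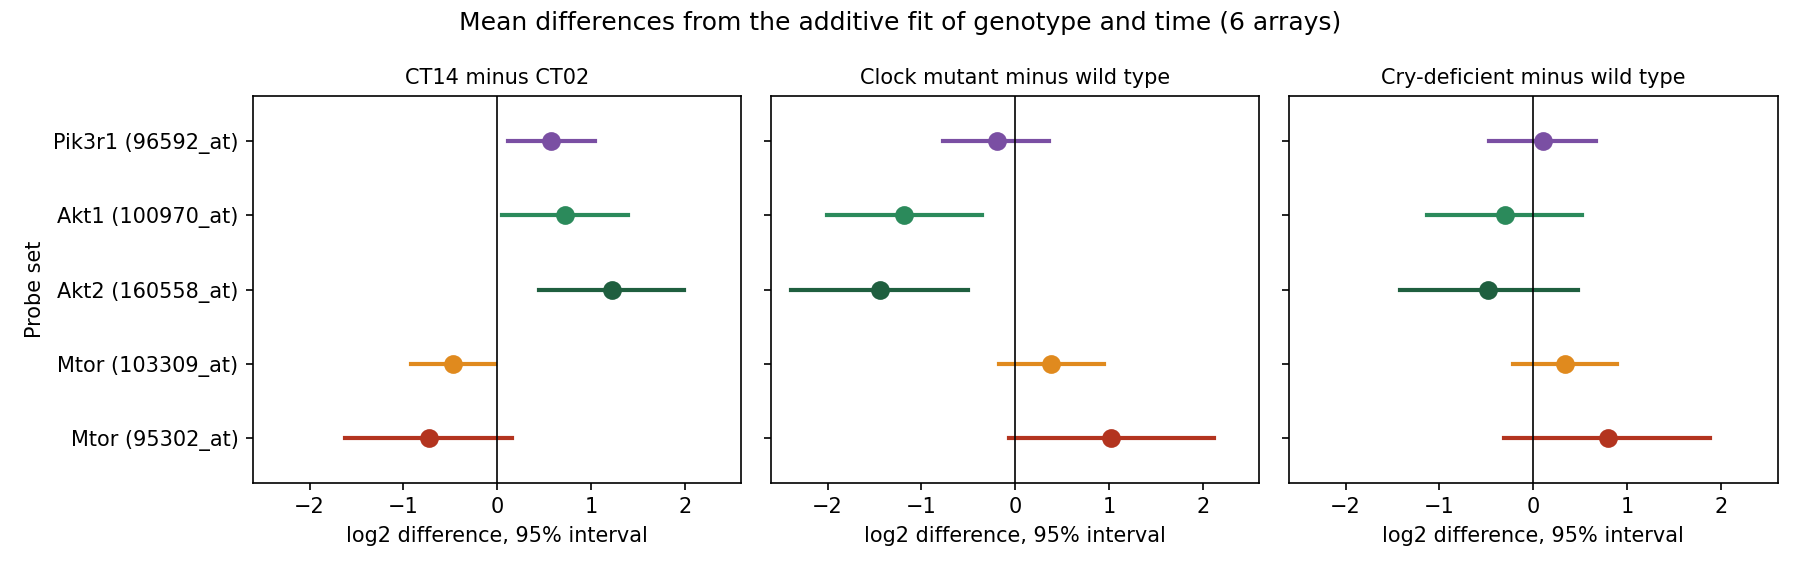
Mean log2 differences of the 5 readable member probe sets from the limma fit of genotype and time over 6 arrays, with 95% intervals as bars, for CT14 minus CT02, Clock mutant minus wild type and Cry-deficient minus wild type. The intervals of Akt2 lie above 0 for time (0.44 to 1.99) and below 0 for the Clock mutant (-2.39 to -0.50), before any adjustment for the number of probe sets. Values under the floor, as for Akt2 on the Clock mutant CT02 array, entered the fit at the floor.

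The wider pathway was read from 7 gene lists with 78 readable genes, which include the 4 readable member genes. Each gene was read on its brightest probe set and counted beside all 4844 readable genes. The 2-fold counts thus hold Akt1, Akt2 and Mtor again wherever these passed 2-fold above. In wild type 9 of 78 were at least 2-fold apart between the times, 11.5% against 4.56% of all genes. In the Clock mutant 14 were (17.9% against 7.74%), and on the Cry-labelled arrays 5 (6.41% against 5.55%). Against wild type the Clock mutant had 17 at CT02 (21.8% against 11.8%) and 8 at CT14 (10.3% against 9.76%), and the Cry-labelled arrays had 10 at CT02 (12.8% against 6.69%) and 4 at CT14 (5.13% against 4.73%). In the limma fit 6, 13 and 4 of the 78 had an unadjusted p under 0.05 for time, the Clock mutant and the Cry-labelled arrays. These were 7.69%, 16.7% and 5.13%, against 5.09%, 16.0% and 6.54% of all kept probe sets, and 0 passed after adjustment in each. The limma shares lay near the background, with Akt1, Akt2 and Pik3r1 among the time genes and Akt1 and Akt2 among the Clock mutant genes. The 2-fold shares lay above theirs in the wild-type and Clock mutant time comparisons and in both mutant comparisons at CT02. In the remaining comparisons they lay near it. The excess was not tested.

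Of the receptor and adaptor list, 10 of 17 genes on the array were readable, and in the Clock mutant at CT02 3 were higher and 6 lower than in wild type, with 1 higher and 2 lower by at least 2-fold and a median of -0.17. Grb10, an adaptor that inhibits the insulin receptor and is itself an mTOR complex 1 substrate, read 642 and 658 in wild type, 1555 and 1572 on the Clock mutant arrays, and 912 and 1019 on the Cry-labelled arrays. Both Clock mutant arrays were above the other 4, 2.42-fold over wild type at CT02 and 2.39-fold at CT14, and its mean Clock difference of 1.27 (SE 0.21) had the lowest adjusted limma p of the 78 genes, 0.0995. Its other 2 probe sets were under the floor on all 6 arrays. Ceacam1, a receptor that promotes insulin clearance by liver, read 8914 and 4396 in wild type, 1038 and 4363 on the Clock mutant arrays, and 2440 and 7249 on the Cry-labelled arrays, so that its lowest values came from the same CT02 arrays as those of Akt2. Its other readable probe set, 102806_g_at, was likewise lowest on the Clock mutant CT02 array, at 2328, with a log2 difference from wild type of -1.25 where the brighter one had -3.10.

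Of the phosphoinositide 3-kinase list 9 of 13 were readable, and its median in wild type was -0.40 between the times, with 4 higher and 5 lower at CT14. Pik3r1 had the largest positive difference of these 9 and Pip5k1a, a kinase that makes the lipid substrate of phosphoinositide 3-kinase, the largest negative one, with 2403 and 1018 scaled units at CT02 and CT14. In the Akt branch 13 of 14 were readable, and in the Clock mutant at CT02 9 were lower than in wild type and 4 higher, with a median of -0.48 and only Akt1 and Akt2 past 2-fold. Of these 13 genes 8, or 61.5%, were lowest on the Clock mutant CT02 array, against 25.6% of all readable genes. Akt1 and Akt2 are among these 8, and the list was chosen with earlier results of these data known. In the Clock mutant, Gys1, the glycogen synthase of muscle type, and Foxo4, a forkhead factor restrained by Akt, were 2.07-fold and 2.02-fold lower at CT14, opposite to Akt1 and Akt2.

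Among mTOR complexes and regulators 14 of 18 were readable, and 11 of them were lower in the Clock mutant than in wild type at CT02, with a median of -0.40. In wild type between the times the list was even, 7 higher and 7 lower, and Mtor and Mlst8 were the only ones past 2-fold, both lower at CT14. Mlst8, a subunit of both mTOR complexes, read 1827 and 868 in wild type, 261 and 1325 on the Clock mutant arrays, and 796 and 1419 on the Cry-labelled arrays. It was therefore lower at CT14 in wild type, as Mtor was, and higher at CT14 on the Clock mutant arrays and on the Cry-labelled arrays, as Akt1 and Akt2 were. Of the mTOR substrates and outputs 13 of 16 were readable. Lpin1, a lipid phosphatase and nuclear regulator under mTOR control, read 688 and 4546 in wild type, a 6.61-fold difference, 1040 and 2620 on the Clock mutant arrays, and 2782 and 1862 on the Cry-labelled arrays. Eif4b, a translation factor phosphorylated below mTOR, read 761 on the Clock mutant CT02 array and 3536 to 6274 on the other 5 on 100557_g_at, but its other readable probe set, 161342_r_at, read 737 there and 767 to 1327 elsewhere.

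The liver transcripts that respond to insulin, of which 13 of 15 were readable, took the opposite course to Akt1 and Akt2 in the Clock mutant. The list mixes transcripts that insulin raises with others that it represses, such as Igfbp1, so a shared direction is not a measure of insulin action. On their brightest probe sets all 13 were lower at CT14 than at CT02 in the Clock mutant, with a median of -0.65 and 4 past 2-fold. For Pklr the other readable probe set had 0.15 there. At CT02 11 of 13 were higher in the Clock mutant than in wild type, with a median of 0.60 and 5 past 2-fold. These medians were -0.38 and 0.37 after quantile normalization. Both comparisons use the Clock mutant CT02 array, on which Akt1 and Akt2 were lowest, so they are not separate observations. Hepatocyte markers went the same way over time in the Clock mutant, with 7 of 8 lower at CT14, a median of -0.34 and their highest sum on the CT02 array, while against wild type at CT02 5 of 8 were higher, with a median of 0.06. Their part in the result was not tested. None of the 13 was lowest on the Clock mutant CT02 array. Fasn, the fatty acid synthase, read 5148 and 17963 in wild type, 16935 and 4924 on the Clock mutant arrays, and 10460 and 14036 on the Cry-labelled arrays. In wild type 7 were higher and 6 lower at CT14, and Igfbp1, a secreted binding protein that insulin represses, was at least 15.8-fold lower (9554 and 188). The Ras and MAP kinase list, with 7 of 11 readable, had a median of 0.68 between the times on the Clock mutant arrays and -0.75 against wild type at CT02, with Nras, Map2k2 and Elk1 past 2-fold lower in the latter. For Nras the dimmer of its readable probe sets had 0.12 where the brighter had -1.57. Both medians of this list likewise use the Clock mutant CT02 array.

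**Figure D5:**
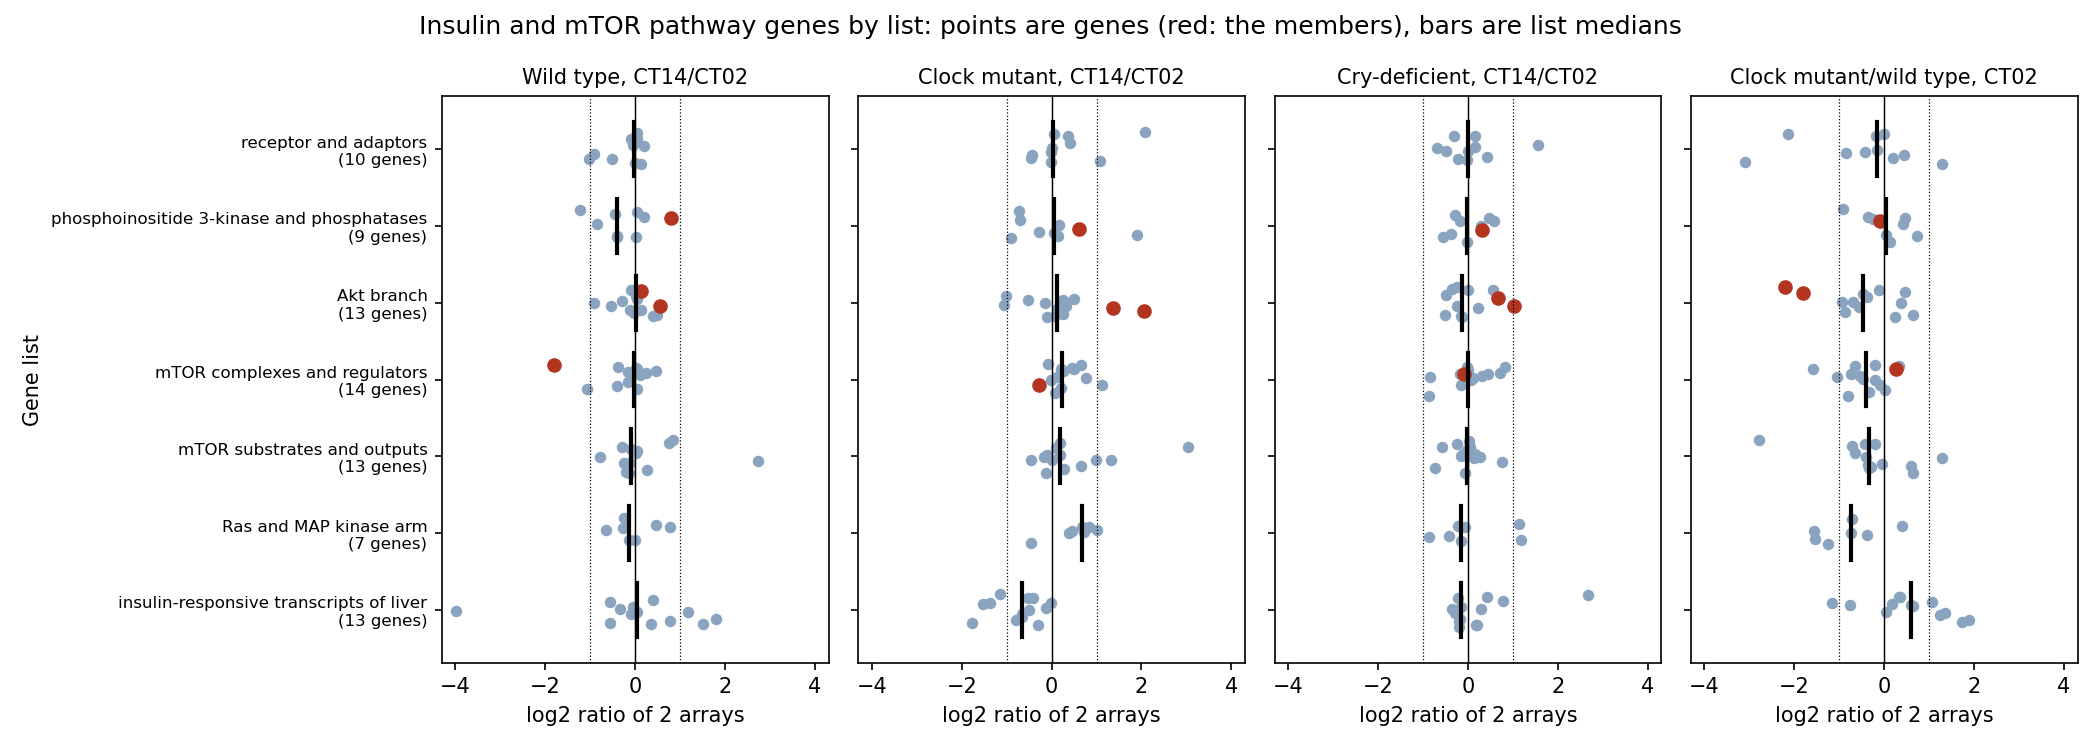
Log2 ratio of 2 arrays for each readable gene of 7 pathway lists in 4 comparisons, with grey-blue points for genes, red points for member genes, black bars for list medians and dotted lines at 2-fold. The bar of the insulin-responsive list lies at -0.65 for the Clock mutant over time and at 0.60 for the Clock mutant against wild type at CT02, while Akt1 and Akt2 lie on the other side of 0 in both.

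Markers of other liver and non-liver cells were read beside the members. T cell markers were readable in 0 of 4, with sums of 166 to 358 scaled units over the 6 arrays. Macrophage markers (11 of 11 readable) summed to 29443 and 30271 on the Clock mutant arrays of CT02 and CT14, 39015 and 37665 in wild type, and 53317 and 41347 on the Cry-labelled arrays. On these sums both Clock mutant arrays were the lowest of the 6, as they were for Gsk3a. The single genes were mixed: against wild type 3 were higher and 6 lower at CT02, and 2 higher and 8 lower at CT14. C1qa (6165) and Cd68 (2132) were highest on the Clock mutant CT02 array. B cell markers (3 of 4) summed to 8625 to 11256, stellate cell markers (3 of 5) to 2245 to 3973, and adipocyte markers (2 of 4) to 4473 to 8136. Ms4a1 and Lep, each on its brightest probe set, gave the largest part of the B cell and adipocyte sums. The other Ms4a1 probe set had a mean under the floor. The other Lep probe set was lower on the Clock mutant CT02 array (970) than in wild type (1509), opposite to the brightest. For none of the lists was its part in the member differences tested.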

How the data were processed

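The values are intensities as the authors deposited them, whole numbers above and below 0, made by software and steps not given in the sources used here. Titles gave each array's group. Scaling divided an array by the median of its ratios to the geometric mean array, taken over 6065 probe sets (log2 offsets -0.43 to 0.20). Scaled values under 606 units, the pooled median, were raised to that floor ahead of the log2, and folds against them are lower bounds. A single gene symbol was listed for 10855 of 12488 probe sets, several for 396 and none for 1237. Of the former, 10839 matched the RefSeq gene table by gene number. Leaving out 66 control probe sets and those without a single symbol kept 10833. Those with a mean at or above the floor (5598) were tested.

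Folds between 2 arrays are descriptions with no test. The additive fit used limma 3.58.1 in R 4.3.3 (lmFit, eBayes, genotype and time as factors, Benjamini-Hochberg over 5598 probe sets, threshold 0.05) and was tested on simulated data. Python 3.11.15 was used for the rest. Named genes are all member probe sets, the up to 4 list genes with the largest ratio in a comparison, list genes passing the fit (0 did), and the 3 probe sets most correlated with a member that was above the floor on all arrays and spanned at least 2-fold. Gsk3a, Clock, Cry1, Cry2, Dio1, Igf1r, Irs2 and Irs3 were named outside that rule. Alternatives were no scaling, quantile and lowess (span 0.3) normalization, scaling without either of 2 CT02 arrays, the 25th percentile as floor, no filter, the mean over probe sets, a 3-fold threshold, a trended robust prior and leaving out each array. The members and lists were chosen with earlier results of these data known. Precision is limited by having 1 array per group.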

Additional observations from a re-analysis of the deposited data

Results flagged for a closer look

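Genes of the pathway lists whose time difference had opposite signs in 2 genotypes, by at least 2-fold each way, are given here as values. Each rests on 4 arrays, and none of the differences between genotypes was tested. For Ceacam1 the log2 difference of CT14 from CT02 was -1.02 in wild type, 2.07 on the Clock mutant arrays and 1.57 on the Cry-labelled arrays, so that these exceeded wild type by 3.09 and 2.59, but its other readable probe set had -0.82, 1.09 and 0.47 and did not reach 2-fold each way. For Fasn wild type had 1.80 and the Clock mutant -1.78, a difference of -3.58. Pklr, the liver pyruvate kinase, had 1.17 and -1.15, a difference of -2.32, but its other readable probe set had 1.41 and 0.15. For Mlst8 wild type had -1.07 and the Clock mutant 1.13, a lower bound, a difference of 2.20. Igfbp1 had -3.98, a lower bound in size, in wild type, -1.37 on the Clock mutant arrays and 2.67 on the Cry-labelled arrays, so that the latter exceeded wild type by 6.65 and the Clock mutant by 4.04. No member gene was among them.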

How the results depend on the processing

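Of the member log2 differences between 2 arrays, 208 recomputed values kept their side of 2-fold and 2 did not: Akt2 between the times on the Cry-labelled arrays was 0.97 after quantile normalization and 0.99 after lowess correction. With no scaling Mtor turned sign in the Clock mutant at CT02 against wild type as well, to -0.28 on 95302_at and -0.35 on 103309_at, where the median of all genes was -0.52. With the floor at the 25th percentile the Akt2 bounds were 3.20 between the times on the Clock mutant arrays and -3.33 against wild type at CT02. The count of members at least 2-fold apart between the times on the Cry-labelled arrays was 0 after quantile normalization, 0 after lowess correction, 0 at a 3-fold threshold and 2 with the lower floor. At 3-fold it was 1 in the Clock mutant between the times, and with the lower floor 2 on the Cry-labelled array against wild type at CT14, 3 in the Clock mutant between the times and 3 in the Clock mutant against wild type at CT02 (2 and 2 as reported). The readable member probe sets all kept their side of 2-fold with the lower floor. Each added count thus comes from a member probe set left unread at the main floor. List medians at least 0.5 from that of all genes numbered 4 of 49 list and comparison pairs, and 1 without the filter on dim probe sets.

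In the limma fit no member had an adjusted p under 0.05 in any of 15 settings. Over all probe sets, 1 passed for the Clock mutant, 0 with the lower floor, 5 without the filter, 16 with a trended robust prior and 0 to 18 with 1 array left out. For the Cry-labelled arrays 0 passed, and 1 with that prior. The Cry difference changed sign without the wild-type CT02 array for Pik3r1 (-0.07), Akt1 (0.15) and Akt2 (0.02), without the Cry-labelled CT02 array for Pik3r1 (-0.10), and without the wild-type CT14 array for Mtor on 95302_at (-0.02). Over all arrays left out it ranged from -0.10 to 0.30 for Pik3r1, -0.75 to 0.15 for Akt1, -0.97 to 0.02 for Akt2 and -0.02 to 1.59 for Mtor on 95302_at. No paired analysis was possible because each group has 1 array and the labels give no replicate numbers. Signal over background leaves Insr and Irs1 unread.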
